A study of Mus musculus with 18 samples.

Results

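Kidneys taken 2 days after folic acid were compared with kidneys taken 1 day after it, using 6 of the 18 RNA sequencing libraries of a mouse time course. Day 1 and day 2 had 3 libraries each, assigned by their labels, and both groups were whole kidney of male Balb/c mice of 25 to 29 g. Every mouse of both groups received 1 intraperitoneal injection of folic acid, 250 mg/kg in 0.3 M sodium bicarbonate, so treatment was shared and the day after injection was what differed. The other 12 libraries were untreated kidney and kidney at days 3, 7 and 14, again 3 each. They entered the comparison through a shared estimate of the spread between replicates, the low-count filter and the scaling. No group had the bicarbonate alone. The labels do not say that each library came from a separate mouse, so p-values measure the spread between these libraries, which may be partly technical.

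A high dose of folic acid crystallises in the tubule lumen and injures tubular epithelium, above all that of the proximal tubule. Surviving tubular cells then leave their resting state and divide to replace those lost. A dividing cell copies its DNA in S phase and then enters mitosis, in which chromosomes condense, each attaches to spindle microtubules through its kinetochore, a checkpoint holds the cell until all are attached, and the daughters separate by cytokinesis. Genes for the steps of mitosis are transcribed together late in the cycle, after those for DNA replication. The day 2 against day 1 comparison asks which genes moved in the second day after injury.

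Of 16824 genes tested, 10 passed a Benjamini-Hochberg adjusted p of 0.05 in edgeR's quasi-likelihood test (0.0594%), 7 of them higher and 3 lower at day 2. The 7 that rose were Cenpe, Ska3, Zfhx3, Foxm1, Mki67, Knl1 and Slc5a12, and the 3 that fell were Cyp2d9, Dnase1 and Pzp. Of the 7, Cenpe, Ska3, Foxm1, Mki67 and Knl1 code for proteins of mitosis or its control. Among 61 genes of mitosis and the kinetochore, 60 had a log2 fold change above 0, with a median of 1.54, whereas 49.8% of all genes tested lay above 0 and their median was -0.00. At an unadjusted p under 0.05 there were 2252 genes (13.4%).

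The libraries differed in depth and in 1 case in makeup. Reads assigned to genes numbered 26.9, 49.9 and 54.6 M (M, 1e6 reads) at day 1 and 45.5, 8.68 and 24.6 M at day 2, and 63.5 to 69.8% of these reads came from mitochondrial genes. Day 2 replicate 2, the shallowest library, kept 2.83 M reads outside those genes, against 8.34 to 17.2 M in the other 5. In that library 169 genes of at least 10 counts per M reads (CPM) stood over 8-fold above both other day 2 libraries, whereas the same count in the other 5 libraries was 10 to 34. Its root mean square log2 difference from the other day 2 libraries was 1.11 and 1.15 over 5428 genes, against 0.681 between replicates 1 and 3. The called genes and the gene lists are therefore given with and without it, and single genes where it moved their value most. A gene is said to be called by edgeR with all libraries unless another tool is named. Without it 1 gene, Ska3, was called among 17775 (0.00563%), and the other 9 had adjusted p-values of 0.0512 to 0.0804 in edgeR with their directions kept. At an unadjusted p there were then 1812 genes (10.2%). None of the 7 genes that rose was called in fits that left out 1 day 1 library instead. Kidney genes marked the tissue in all 6 libraries: Lrp2, the endocytic receptor of the proximal tubule, lay between 388 and 587 CPM and Umod, the uromodulin of the loop of Henle, between 108 and 282 CPM.

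**Figure D1:**
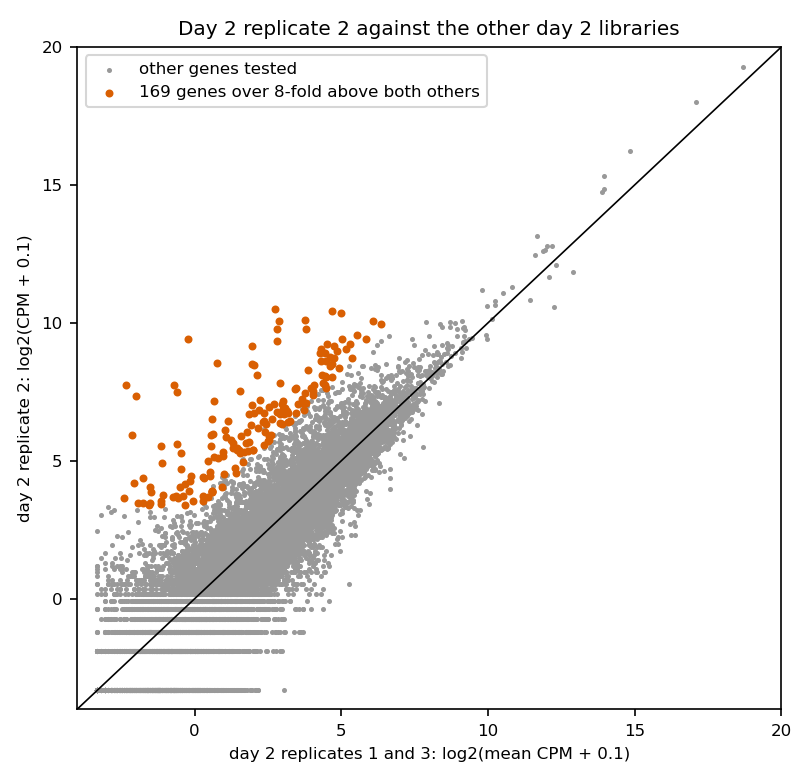
Level of each gene tested in day 2 replicate 2 (vertical axis) against the mean of day 2 replicates 1 and 3 (horizontal axis), both as log2(CPM + 0.1), with the line of equal level. The 169 genes in orange lay over 8-fold above both other libraries. Their summed CPM was 3.39% of a nominal M reads in replicate 2 and 0.158 and 0.146% in replicates 1 and 3. These are not shares of the reads, because CPM are TMM-scaled and the total of a library departs from that M. The TMM factor was 0.682 in replicate 2, which raises its CPM, and 1.08 and 1.06 in replicates 1 and 3.

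The 169 genes bear directly on the comparison. Their median log2 fold change was 2.61 with all libraries and -0.17 without replicate 2. Of them, 150 had an unadjusted p under 0.05, and 1, Cenpe, was called. Sirt7, a nuclear deacylase and the highest of the 169 in replicate 2, lay between 5.08 and 6.58 CPM at day 1, at 6.30 and 6.96 CPM in day 2 replicates 1 and 3, and at 1437 CPM in replicate 2. Of the 61 mitosis genes below, 2 are among the 169, Cenpe and Cdca8, and no other list has more than 2.

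The promoters of the mitotic genes are shown first because 4 of the 7 genes that rose belong to that list. Many genes of late cell cycle carry a short element known as the CHR, here searched as TTTGAA, and boxes that read CCAAT. In 300-base windows from 250 bases before to 50 after each transcription start in RefSeq (GRCm38.p6), searched on both strands, TTTGAA was found in 37 of 52 windows of the mitosis list (71.2%). The same letters were in 12.9% of the windows of all genes tested and in 17.9% of all windows in the table. CCAAT was in 71.2% of the mitosis windows, 37.3% of those of genes tested and 37.4% of all. In 44 windows of DNA replication genes TTTGAA stood in 13.6% and CCAAT in 56.8%. Of the mitosis genes, 50 of 61 matched an entry, and a few have more than 1 start.

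The E2F forms searched for were TTTCGCGC and TTTGGCGC, and no motif searched contains another. They were in 18.2 and 15.9% of the replication windows, 1.92 and 5.77% of the mitosis windows, and 0.561 and 0.797% of the windows of genes tested. The AP-1 form TGANTCA was in none of either list and in 5.50% of the windows of genes tested. A match of letters describes these windows and does not show that a factor was bound in the kidney.

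The 150 bases before the start of 3 genes that rose follow, 5′ to 3′ on the strand of the gene, to show where such letters stand. Capitals mark TTTGAA (or its reverse complement TTCAAA) and CCAAT. They are Mki67 at chr7:135716380-135716529 (minus strand), Cenpe at chr3:135212413-135212562 (plus strand) and Ska3 at chr14:57826164-57826313 (minus strand), all GRCm38.p6.
Mki67: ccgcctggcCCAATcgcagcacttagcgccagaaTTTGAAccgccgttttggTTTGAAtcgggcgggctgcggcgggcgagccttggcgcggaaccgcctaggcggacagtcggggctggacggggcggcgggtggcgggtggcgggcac
Cenpe: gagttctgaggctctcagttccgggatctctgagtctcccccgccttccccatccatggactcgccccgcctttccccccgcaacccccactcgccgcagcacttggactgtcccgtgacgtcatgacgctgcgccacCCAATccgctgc
Ska3: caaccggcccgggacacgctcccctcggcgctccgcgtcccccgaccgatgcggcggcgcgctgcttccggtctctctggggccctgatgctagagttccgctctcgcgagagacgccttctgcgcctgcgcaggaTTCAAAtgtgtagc
In Mki67 the TTTGAA matches begin 116 and 98 bases before the start, with a CCAAT 141 bases before it. The Mki67 window also had CCAAT 188 and, on the opposite strand, 166 bases before the start, outside the bases shown. Ska3 has its match 14 bases before the start, on the opposite strand, and Cenpe has CCAAT 12 bases before it. Knl1 had TTTGAA 32 bases after its start and no CCAAT in the window.

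Ska3 codes for a subunit of the Ska complex, which helps the outer kinetochore hold on to microtubule ends. Its level was 0.744, 0.607 and 0.358 CPM at day 1 and 16.0, 1.86 and 14.8 CPM at day 2. All day 2 libraries lay above all day 1 libraries, and replicate 2, with 11 reads, was the lowest of day 2. Day 2 exceeded day 1 by a log2 fold change of 4.28 ± 0.68 (SE, n = 3 and 3, edgeR adjusted p = 0.0225). Without replicate 2 it was 4.76, with an adjusted p of 0.0013. Untreated kidney had 1.05 ± 0.57 CPM and day 3 had 2.93 ± 0.68 CPM (SD, n = 3). The gene overlaps Sap18 on the opposite strand, and the strand setting of the counting is not given in the sources used here, so reads of the overlap cannot be assigned.

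Foxm1, a forkhead transcription factor that drives genes of the late cell cycle, lay at 3.32, 2.79 and 1.65 CPM at day 1. At day 2 it lay at 53.5, 30.3 and 6.69 CPM. The groups did not overlap, though day 2 replicate 3 was well below the other 2. This gave a log2 fold change of 3.55 ± 0.65 (SE, n = 3 and 3, edgeR adjusted p = 0.048), and 3.54 without replicate 2 (adjusted p = 0.0738). Its partner on late cell cycle promoters, Mybl2, had a log2 fold change of 0.92 and did not pass. Foxm1 shares bases with Tex52 on the same strand in the annotation.

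Mki67 codes for Ki-67, the coat protein of mitotic chromosomes used in tissue sections as the mark of cycling cells. It measured 15.4, 7.90 and 13.3 CPM at day 1 and 58.2, 107 and 69.5 CPM at day 2. Every day 2 library was above every day 1 library by a wide margin, with a log2 fold change of 2.68 ± 0.41 (SE, n = 3 and 3, edgeR adjusted p = 0.0191). Without replicate 2 the value was 2.38 and the adjusted p was 0.0572. In untreated kidney the gene stood at 4.03 ± 2.30 CPM and at day 3 at 44.5 ± 9.46 CPM (SD, n = 3).

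Knl1 codes for the kinetochore scaffold on which spindle checkpoint proteins gather. Its levels were 4.90, 2.95 and 3.14 CPM at day 1 and 13.3, 25.7 and 24.1 CPM at day 2, without overlap, for a log2 fold change of 2.52 ± 0.45 (SE, n = 3 and 3, edgeR adjusted p = 0.0383), and 2.35 without replicate 2 (adjusted p = 0.0764).

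Cenpe, a kinetochore motor that carries chromosomes to the spindle equator, is the called gene whose size depended most on replicate 2. It lay at 1.40, 1.82 and 1.69 CPM at day 1 and at 5.61, 1113 and 21.1 CPM at day 2. Replicate 2 alone holds the extreme value, from 6585 reads, and the other day 2 libraries were still above every day 1 library. The log2 fold change of 7.84 ± 1.37 (SE, n = 3 and 3, edgeR adjusted p = 0.037) became 3.02 without replicate 2 (adjusted p = 0.0738).

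**Figure D2:**
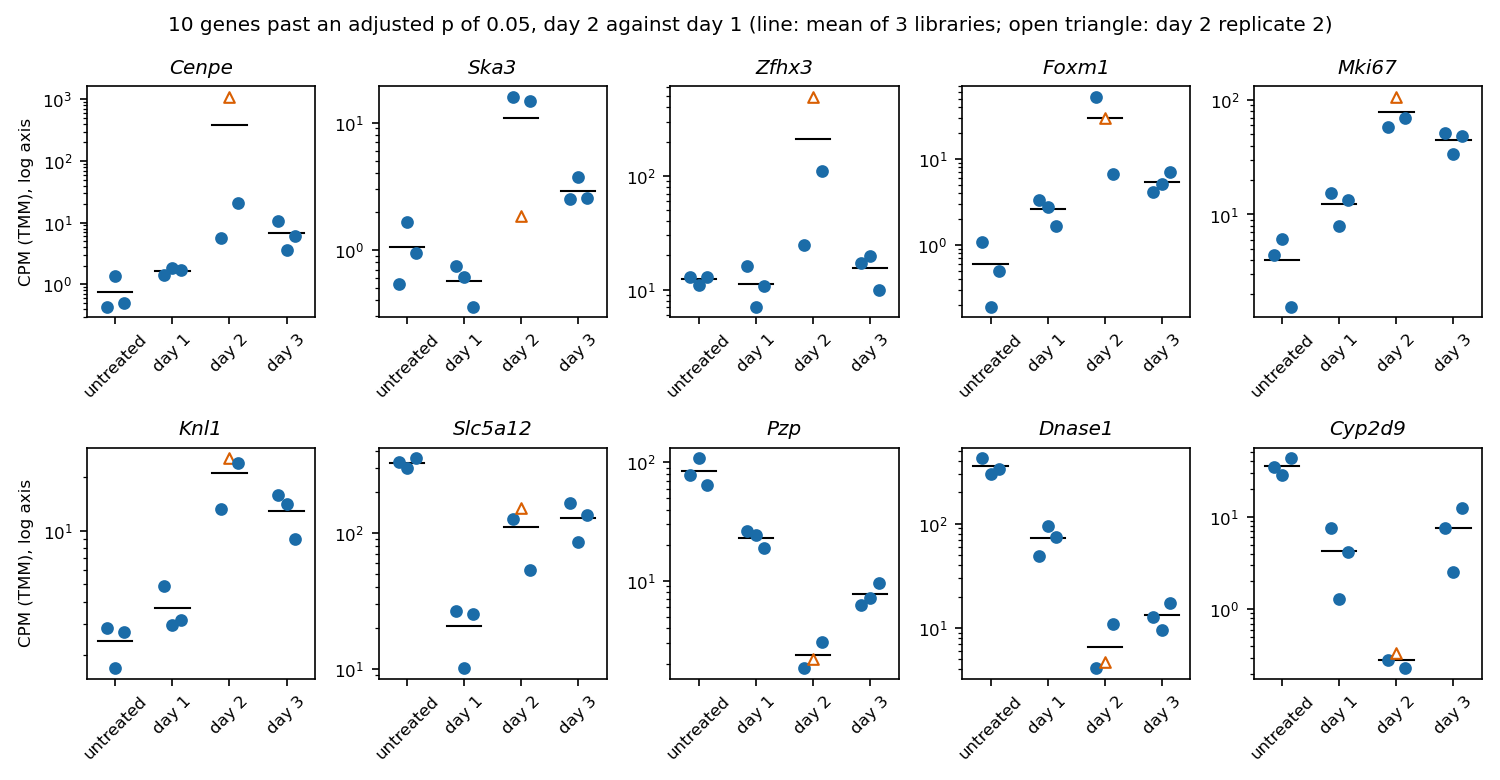
CPM on a log axis in each of the 3 libraries of untreated kidney and of days 1, 2 and 3, for the 10 genes past an adjusted p of 0.05 between day 2 and day 1; the line is the mean and the open triangle is day 2 replicate 2. No day 2 library overlaps a day 1 library in any of the 10 panels, and the triangle stands far above its group in Cenpe (1113 CPM).

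Of the 61 mitosis genes, all were tested, 4 were called higher (Cenpe, Foxm1, Mki67 and Knl1) and none lower, against 0.0416 and 0.0178% of all genes called higher and lower. Ska3 was not a member of that list. At an unadjusted p under 0.05, 34 were higher and 0 lower (all genes 7.89% and 5.49%). In 37 (60.7%) every day 2 library lay above every day 1 library, which held for 5.87% of all genes, and in 0 the reverse. Without replicate 2 none of the 61 was called, 60 lay above 0 with a median of 1.68, and 35 had an unadjusted p under 0.05. With that library set aside, 45 (73.8%) did not overlap, against 11.7% of all genes. The count called also depended on the tool and the filter: it was 22 with DESeq2 and 11 with no low-count filter, but 0 when only the day 1 and day 2 libraries were fitted. DESeq2 without replicate 2 called 20. Of the genes described below these included Ccnb2, Plk1, Cenpf, Cenpa, Cdc20, Bub1b, Top2a, Hmmr, Kif11 and Prc1, but not Ccnb1 or Cdca8.

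Summed over the 61 genes, the level was 202, 153 and 145 CPM at day 1 and 491, 1648 and 590 CPM at day 2. Every day 2 library exceeded every day 1 library, and most of the excess of replicate 2 was the Cenpe value above. Untreated libraries summed to 86.2 to 102 CPM and day 3 libraries to 367 to 385 CPM, so day 2 held the highest sums of these 4 times. In whole tissue, more cells in mitosis and more of these transcripts per cell cannot be told apart.

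The 13 genes grouped as starting and driving mitosis included cyclins, kinases and the phosphatase Cdc25c. None of these 13 was called by edgeR, whereas DESeq2 called Ccnb1, Ccnb2 and Plk1. Of them 12 were above 0 with a median log2 fold change of 1.43 (1.77 without replicate 2), and 6 had an unadjusted p under 0.05. Examples here and below were picked after their values were seen. Ccnb2, a B-type cyclin that activates Cdk1, had 0.481, 0.607 and 0.298 CPM at day 1 and 2.83, 2.87 and 9.15 CPM at day 2 (log2 fold change 3.43, edgeR adjusted p = 0.0862). Plk1, the polo kinase of spindle and kinetochore assembly, had 0.569, 0.292 and 0.179 CPM at day 1 and 3.91, 2.37 and 4.80 CPM at day 2 (3.45, adjusted p = 0.158). The groups did not overlap for either gene. Of the panel, Ccnb1 had a log2 fold change of 1.73 (edgeR adjusted p = 0.174, DESeq2 adjusted p = 0.0361) and Cdk1 1.43 (adjusted p = 0.568). With DESeq2 and without replicate 2, Ccnb1 had 1.84 and did not pass (adjusted p = 0.0817). Cdc25c, a phosphatase that activates Cdk1, was the 1 member of the whole list below 0, at -0.26 with at most 1.18 CPM in any library.

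The kinetochore and centromere genes numbered 11, all above 0, with a median of 1.59 (1.67 without replicate 2). Besides Cenpe and Knl1 none was called by edgeR, whereas DESeq2 also called Cenpf, Cenpa and Cdca8. Cenpf, a large protein of the outer kinetochore, had 5.42, 4.32 and 2.29 CPM at day 1 and 10.4, 12.8 and 23.9 CPM at day 2 (log2 fold change 1.98, edgeR adjusted p = 0.123). Cenpa, the histone H3 variant that marks centromeres, had 0.700, 0.202 and 0.437 CPM at day 1 and 3.67, 1.52 and 2.92 CPM at day 2 (2.64, adjusted p = 0.145). Neither pair of groups overlapped. Cdca8, or borealin of the chromosomal passenger complex, was unlike them: its log2 fold change of 3.12 became 0.62 when replicate 2, at 49.5 CPM against 4.73 and 1.77 CPM in the others, was left out.

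The spindle checkpoint and anaphase genes were 8 of 8 above 0, with a median of 1.69 (1.54 without replicate 2). Cdc20, the activator of the anaphase-promoting complex, had 0, 0.270 and 0.0398 CPM at day 1 and 8.32, 2.70 and 2.15 CPM at day 2. Its log2 fold change of 5.27 rests on few day 1 reads (edgeR adjusted p = 0.113). Bub1b, the checkpoint kinase-like protein BubR1, had 0.481, 0.405 and 0.0795 CPM at day 1 and 3.24, 3.72 and 2.96 CPM at day 2 (3.37, adjusted p = 0.125). DESeq2 called both. They were higher in all day 2 libraries, whereas Mad2l1, another checkpoint protein, overlapped between days and had a value of 0.29.

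Of the 8 genes of condensin and chromosome structure, all were above 0 with a median of 1.84 (1.93 without replicate 2), and Mki67 was the only 1 called by edgeR. Top2a, the topoisomerase that untangles sister DNA, had 21.6, 6.25 and 4.35 CPM at day 1 and 30.6, 11.8 and 50.2 CPM at day 2 (1.54, edgeR adjusted p = 0.211). Day 1 replicate 1 overlapped day 2 replicate 2 for this gene, and DESeq2 called it only without replicate 2. The condensin subunit Ncapd2 had a log2 fold change of 2.15 and its groups did not overlap, whereas Smc2, the condensin ATPase, had 0.25 and its groups did.

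The spindle motors and microtubule-binding proteins numbered 11, all above 0, with a median of 1.40 (1.57 without replicate 2). Hmmr, a spindle-assembly protein, had 4.20, 5.06 and 4.26 CPM at day 1 and 13.8, 13.01 and 18.5 CPM at day 2. Its 6 values were tight within each day (log2 fold change 1.75 ± 0.34 SE, edgeR adjusted p = 0.0589, n = 3 and 3) and it was not called by edgeR. Kif11, the motor that pushes spindle poles apart, had 4.55, 2.50 and 3.72 CPM and then 13.9, 8.28 and 12.1 CPM (1.68, adjusted p = 0.123). All 7 cytokinesis genes were above 0, with a median of 1.44 (1.43 without replicate 2). Prc1, which bundles microtubules of the central spindle, had 4.51, 2.81 and 3.76 CPM at day 1 and 17.5, 14.7 and 14.4 CPM at day 2 (2.08, adjusted p = 0.0622; called by limma-voom and DESeq2).

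**Figure D3:**
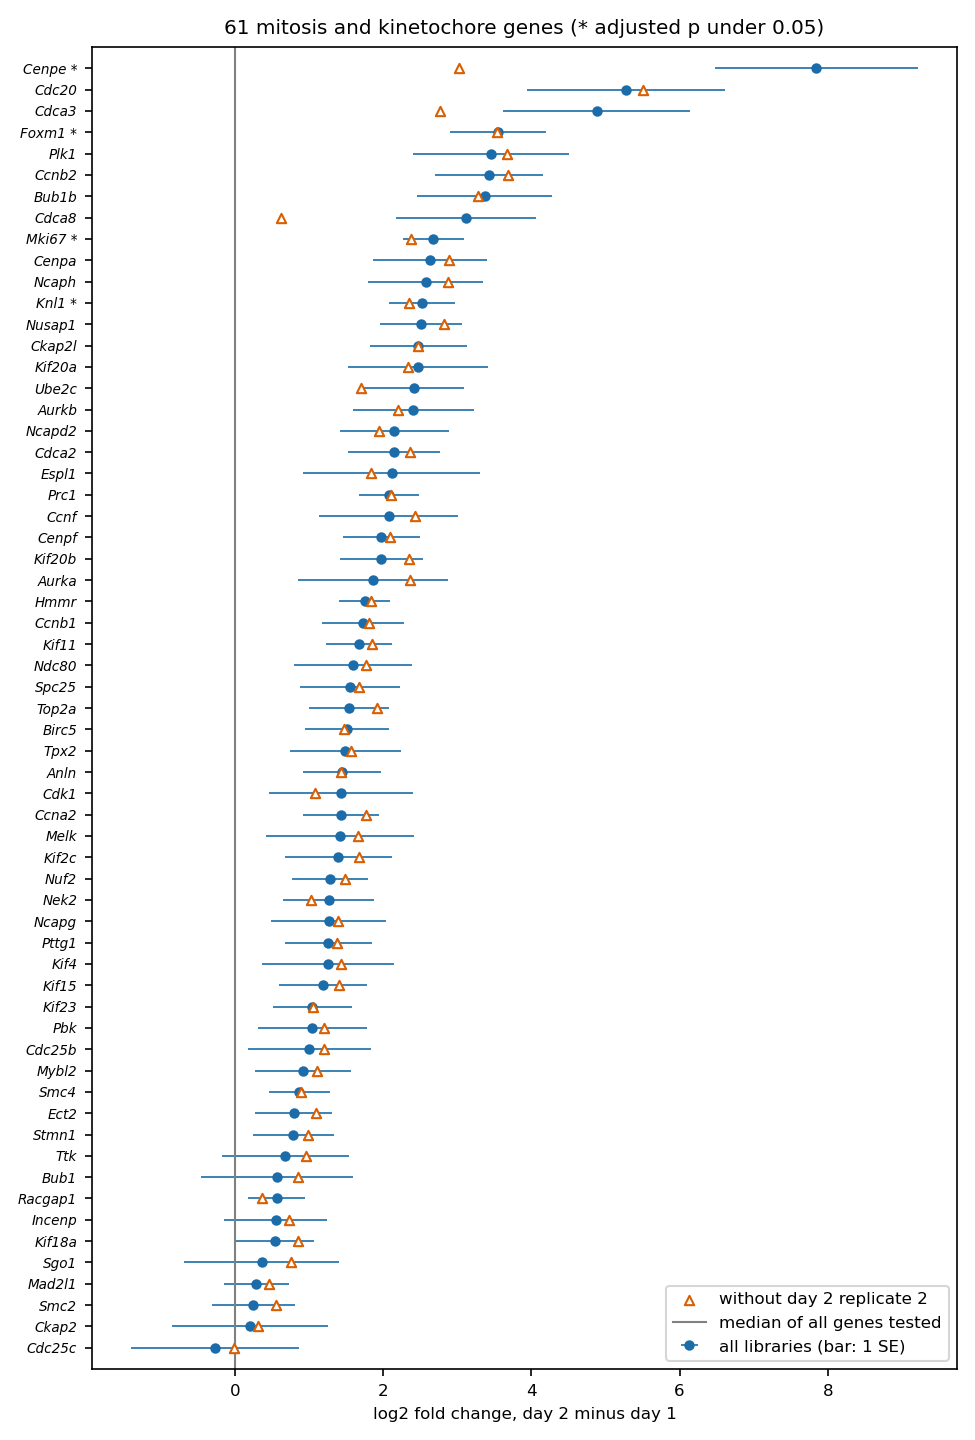
Log2 fold change of day 2 against day 1 for the 61 mitosis and kinetochore genes, with all libraries (filled point, bar of 1 SE) and without day 2 replicate 2 (open triangle); the grey line is the median of all genes tested. The points of 60 genes lie right of 0, and the triangle departs most from the point in Cenpe (7.84 and 3.02), Cdca8 and Cdca3.

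DNA replication genes showed smaller differences than the mitosis genes, a description that was not tested as a difference between lists. Of 44 tested, 27 (61.4%) were above 0, the median was 0.43, and none was called by edgeR or limma-voom and 2 by DESeq2. At an unadjusted p under 0.05, 6 were higher and 0 lower. Without replicate 2 the median was 0.37 and DESeq2 called none. The summed level was 298, 173 and 173 CPM at day 1 and 276, 418 and 259 CPM at day 2, so the days overlapped.

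Within that list the Mcm helicase subunits leaned on replicate 2. Mcm2 had 12.03, 7.45 and 7.52 CPM at day 1 and 9.91, 85.9 and 13.6 CPM at day 2, and its log2 fold change was 2.01 with replicate 2 and 0.38 without it. Rrm2, the small subunit of ribonucleotide reductase, had 7.17, 3.76 and 3.92 CPM and then 16.6, 16.1 and 6.69 CPM (1.40, edgeR adjusted p = 0.299). Pcna, the sliding clamp of DNA polymerase, had 27.3, 15.3 and 13.8 CPM and then 28.7, 15.04 and 21.8 CPM. Its groups overlapped and its log2 fold change was 0.22. Ccne2, a cyclin of S phase entry, was the other way: 4.85, 4.75 and 4.95 CPM at day 1 and 2.79, 1.69 and 2.34 CPM at day 2 (-1.07, adjusted p = 0.43), with no overlap.

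Genes of G1 entry and the brakes of the cycle had a median of 0.52 over 17 tested and 0.20 without replicate 2, with none called by edgeR and 2 higher by DESeq2. Without replicate 2 DESeq2 called none of them. Ccnd1, the D-type cyclin of G1, had 35.8, 60.3 and 46.5 CPM and then 45.9, 81.5 and 63.5 CPM, which overlap. Rbl1, the pocket protein p107, had 3.19, 2.32 and 3.36 CPM and then 7.07, 9.46 and 7.61 CPM (1.44, edgeR adjusted p = 0.157), with no overlap. Cdkn1a, the p21 inhibitor induced by p53, had 11.2, 12.2 and 11.8 CPM at day 1 and 8.58, 8.28 and 52.8 CPM at day 2. Day 2 replicate 3 alone was above day 1, and the log2 fold change went from 0.99 to -0.48 without it. The p53 targets as a list had 10 of 24 above 0, a median of -0.07 with and without replicate 2, and none called by edgeR or DESeq2.

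Slc5a12, a sodium-coupled lactate transporter of the proximal tubule brush border, was the called gene among 62 proximal tubule genes. It had 26.8, 10.1 and 25.3 CPM at day 1 and 126, 152 and 53.3 CPM at day 2. All day 2 values were above all day 1 values, and replicate 3 was the lowest of day 2. The log2 fold change was 2.41 ± 0.42 (SE, n = 3 and 3, edgeR adjusted p = 0.037), and 2.11 without replicate 2 (adjusted p = 0.0804). Untreated kidney stood at 326 ± 26.9 CPM (SD, n = 3), so day 2 remained below it.

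The remaining 61 proximal tubule genes were not called by edgeR and went both ways. Over the list, 41 of 62 were above 0 with a median of 0.28, and 37 with a median of 0.28 without replicate 2. DESeq2 called 8 higher and 6 lower, and 6 higher and 4 lower without replicate 2. At an unadjusted p under 0.05, 16 were higher and 9 lower, and 12 were without overlap in each direction. The summed level was 6122, 5035 and 5603 CPM at day 1 and 6220, 5955 and 5375 CPM at day 2, against 20843 to 22718 CPM in untreated kidney. The sums of the days overlapped and were far below untreated kidney at both.

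Among the transporters with higher values, Slc34a1, the main phosphate carrier, had 33.6, 36.6 and 48.8 CPM at day 1 and 89.3, 57.0 and 98.8 CPM at day 2 (1.04 ± 0.27 SE, edgeR adjusted p = 0.115, DESeq2 adjusted p = 0.0222, n = 3 and 3). Slc4a4, the basolateral sodium bicarbonate carrier, had 347, 221 and 326 CPM and then 709, 642 and 482 CPM (1.04, adjusted p = 0.0833). Neither gene overlapped between days. Lrp2, the endocytic receptor megalin, had 388, 399 and 401 CPM and then 587, 542 and 506 CPM, with no overlap but a log2 fold change of only 0.46 (adjusted p = 0.401). G6pc, the last enzyme of glucose production, had 5.55, 0.922 and 2.80 CPM and then 15.3, 7.27 and 7.27 CPM (1.73, adjusted p = 0.141).

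Other proximal tubule genes had lower values at day 2. Slc22a7, an organic anion transporter, had 0.612, 1.82 and 1.29 CPM at day 1 and no read in any day 2 library (edgeR adjusted p = 0.0862). Kap, the androgen-regulated kidney protein, had 1071, 860 and 691 CPM and then 220, 303 and 246 CPM (-1.77, adjusted p = 0.134). Mep1a, a meprin protease of the brush border, had 225, 189 and 206 CPM and then 108, 74.9 and 110 CPM (-1.08, adjusted p = 0.106). Slc22a8, another organic anion transporter, had 28.8, 22.3 and 21.2 CPM and then 10.5, 3.21 and 8.46 CPM (-1.66, adjusted p = 0.103). These 4 did not overlap between days, and in each the untreated mean, from 9.28 CPM for Slc22a7 to 3412 CPM for Kap, was above both days.

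The 3 genes that fell have no shared list. Dnase1, a secreted endonuclease that digests extracellular DNA, had 48.4, 95.2 and 73.7 CPM at day 1 and 4.12, 4.73 and 10.99 CPM at day 2. Its log2 fold change was -3.43 ± 0.45 (SE, n = 3 and 3, edgeR adjusted p = 0.00585), and -3.27 without replicate 2 (adjusted p = 0.0512). Untreated kidney had 353 ± 65.7 CPM and day 3 had 13.2 ± 3.83 CPM (SD, n = 3), so the level at day 2 was the lowest of these 4 groups. Dnase1 overlaps Trap1 on the opposite strand.

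Pzp, a broad protease inhibitor of the alpha-2-macroglobulin family, had 26.2, 24.4 and 18.9 CPM at day 1 and 1.83, 2.20 and 3.08 CPM at day 2. The 3 values of each day were close together and far from the other day. They gave a log2 fold change of -3.28 ± 0.48 (SE, n = 3 and 3, edgeR adjusted p = 0.0137), and -3.25 without replicate 2 (adjusted p = 0.0572). Untreated kidney had 84.1 ± 22.6 CPM (SD, n = 3), above both days. An antisense gene, Gm10069, overlaps Pzp.

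Cyp2d9, a cytochrome P450, had 7.48, 1.28 and 4.12 CPM at day 1 and 0.285, 0.338 and 0.231 CPM at day 2. Day 2 rests on 14, 2 and 6 reads. Untreated kidney had 35.3 ± 7.40 CPM (SD, n = 3), above both days. The log2 fold change was -3.95 ± 0.68 (SE, n = 3 and 3, edgeR adjusted p = 0.037), and -4.01 without replicate 2 (adjusted p = 0.0738). The mouse has several close copies of this gene, between which reads can be split, so its value is uncertain.

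Zfhx3, a large zinc finger and homeobox transcription factor, had 16.1, 7.11 and 10.7 CPM at day 1 and 24.5, 498 and 111 CPM at day 2. Its day 2 values spread more than 10-fold, with replicate 2 the highest and replicate 1 near day 1. The log2 fold change of 4.22 ± 0.73 (SE, n = 3 and 3, edgeR adjusted p = 0.037) became 2.58 without replicate 2 (adjusted p = 0.0749). Other annotated genes overlap it, among them Gm20686 on the opposite strand. Dnase1, Pzp, Cyp2d9 and Zfhx3 are named because they were called, outside the naming rule.

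Tubular injury markers held none called by edgeR among 32 tested, whereas DESeq2 called 1 higher and 2 lower, with 19 above 0, a median of 0.10 (-0.05 without replicate 2), and 8 higher and 5 lower at an unadjusted p. Without replicate 2 DESeq2 called none higher and 1 lower, Sprr1a. Havcr1, the injury molecule KIM-1 shed by damaged proximal tubule, had 2289, 2450 and 2275 CPM at day 1 and 902, 678 and 1091 CPM at day 2. Every day 2 value was below every day 1 value, and untreated kidney had 16.4 CPM on average. The log2 fold change was -1.39 ± 0.32 (SE, n = 3 and 3), and with an edgeR adjusted p of 0.0999 it was not called. It passed with DESeq2 (adjusted p = 0.013), limma-voom (0.0149) and edgeR with no low-count filter (0.00949), at log2 fold changes of -1.42 to -1.35, but in none of the 4 fits without replicate 2 (adjusted p 0.0509 to 0.229). Spp1, osteopontin, had 16432, 12040 and 12631 CPM and then 17838, 29626 and 13767 CPM, which overlap.

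Lcn2, the lipocalin NGAL, had 94.1, 78.4 and 148 CPM at day 1 and 259, 680 and 81.7 CPM at day 2. Its day 2 libraries disagreed, and the log2 fold change of 1.67 became 0.67 without replicate 2. Clu, the chaperone clusterin, had 312, 304 and 390 CPM and then 772, 927 and 382 CPM (1.05, edgeR adjusted p = 0.128, DESeq2 adjusted p = 0.0351), with replicate 3 inside the day 1 range. With DESeq2 and without replicate 2, Clu had 0.81 and did not pass (adjusted p = 0.228). The fibrinogen beta chain Fgb, made by injured tubules, had 10.2, 15.7 and 5.03 CPM and then 2.18, 2.03 and 0.346 CPM (-2.79, adjusted p = 0.234), with no overlap. Sox9, a factor of tubular repair, had 6.47, 9.47 and 4.24 CPM and then 16.0, 14.4 and 10.1 CPM (1.00, adjusted p = 0.469), with no overlap either. Krt20, a keratin of injured epithelium, overlapped at -1.34.

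Genes of the NRF2 response and glutathione, which defend against oxidants, had 18 of 29 below 0 and a median of -0.34 (-0.36 without replicate 2), with none called by edgeR. DESeq2 called 1 lower, Gclc, and none without replicate 2. In 10 (34.5%) all day 2 libraries were below all day 1 libraries, against 7.96% of all genes. Gclc, the rate-limiting enzyme of glutathione synthesis, had 236, 252 and 210 CPM and then 114, 100 and 113 CPM (-1.09 ± 0.26 SE, edgeR adjusted p = 0.106, n = 3 and 3). The ferritin light chain Ftl1 had 349, 386 and 475 CPM and then 198, 278 and 230 CPM (-0.78, adjusted p = 0.151). Neither overlapped, and the heme-degrading enzyme Hmox1 had 40.0, 63.4 and 43.4 CPM and then 22.7, 39.9 and 16.3 CPM (-0.91, adjusted p = 0.413).

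Heat shock and unfolded protein genes had a median of -0.15 over 35 tested (-0.34 without replicate 2), with none called by edgeR. DESeq2 called 1 lower with and without replicate 2. Hsp90aa1, the inducible cytosolic HSP90, had 423, 435 and 411 CPM at day 1 and 267, 266 and 229 CPM at day 2 (-0.74, edgeR adjusted p = 0.115), without overlap. Immediate early genes lay at 16 of 31 above 0 and a median of 0.03 (0.04 without replicate 2). None was called by edgeR, whereas DESeq2 called 1 higher, Nr4a1, with and without replicate 2. Fos, Jun and Egr1 had log2 fold changes of -0.94, -0.32 and -0.33, and Atf3, a stress factor, had 0.03, which became -0.80 without replicate 2. Myc, at 13.6, 18.9 and 22.7 CPM and then 19.9, 59.7 and 24.6 CPM, overlapped between days. Its value of 0.90 became 0.26 without replicate 2.

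Endothelial genes lay mostly below 0, at 22 of 27 with a median of -0.55, and -0.96 without replicate 2. None was called by edgeR, and 8 were lower and 2 higher at an unadjusted p under 0.05. DESeq2 called 1 higher and 2 lower, and 0 higher and 1 lower without replicate 2. Emcn, the endomucin of capillaries, had 12.03, 10.8 and 12.6 CPM at day 1 and 4.20, 5.24 and 4.92 CPM at day 2 (-1.31, edgeR adjusted p = 0.14). Pecam1, the adhesion molecule CD31, had 4.77, 10.2 and 5.15 CPM and then 3.02, 1.86 and 3.38 CPM (-1.26, adjusted p = 0.167). Both were without overlap. The 2 that were higher owed it to replicate 2: Ly6c1 had 62.0 CPM there against 0.632 and 2.27 CPM, and its log2 fold change of 2.93 became -0.96 without that library.

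The summed level of the 27 endothelial genes shows the same split. It was 173, 149 and 155 CPM at day 1, 98.8 and 112 CPM in day 2 replicates 1 and 3, and 235 CPM in replicate 2. In whole kidney, fewer endothelial cells and less RNA per cell give the same value. Podocyte genes had 13 of 20 below 0 and a median of -0.37 (-0.43 without replicate 2).

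**Figure D4:**
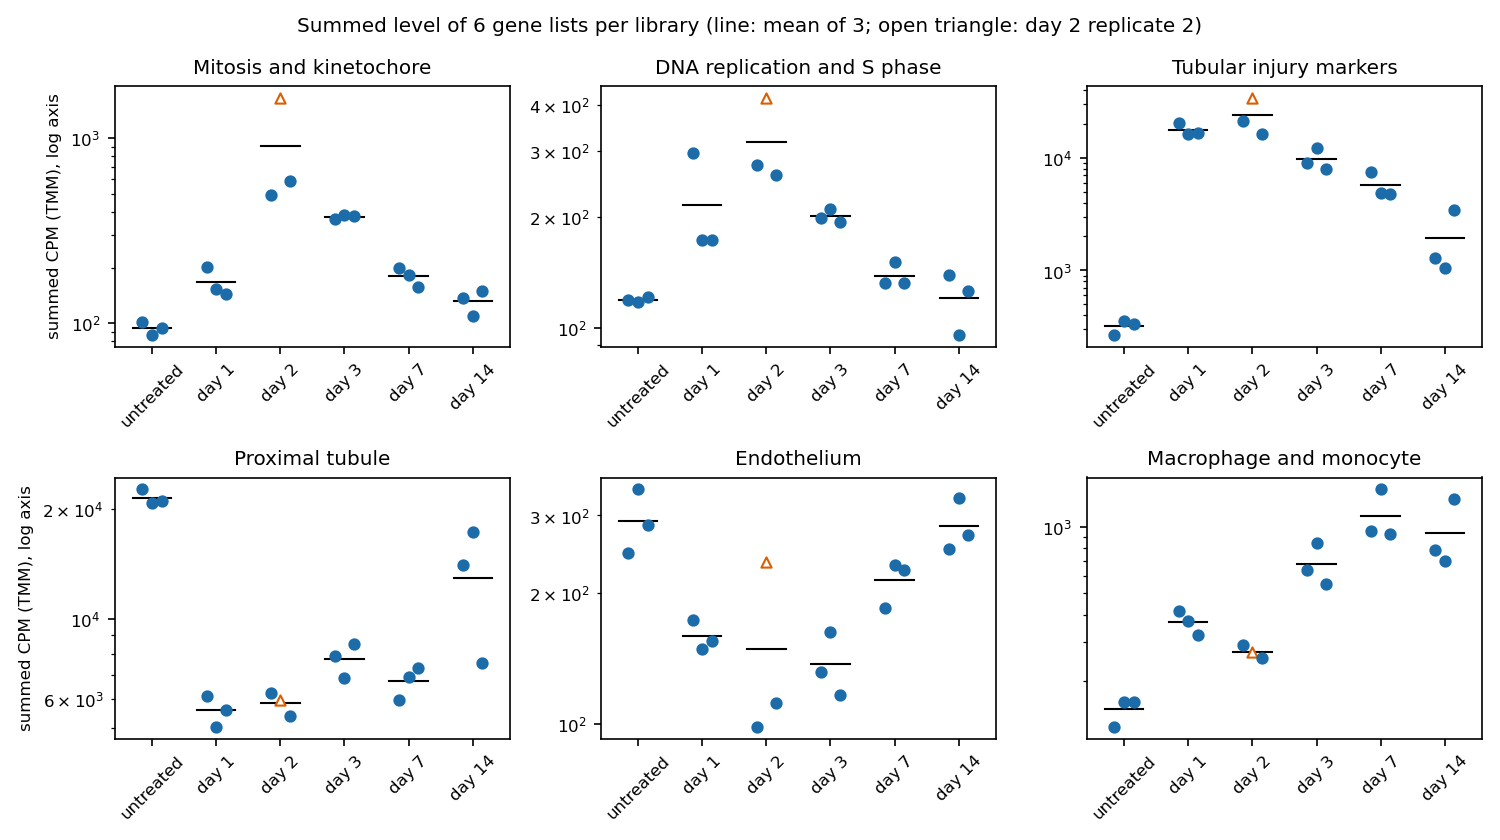
Summed CPM (log axis) of 6 gene lists in each of the 18 libraries, by group; the line is the mean of 3 and the open triangle is day 2 replicate 2. The mitosis sum of every day 2 library (491 CPM or more) is above every other library, whereas the injury, replication and proximal tubule sums of days 1 and 2 overlap.

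The other lists held no gene called by edgeR and are given by count. Genes of macrophages and monocytes had 19 of 35 above 0 and a median of 0.13 (0.21 without replicate 2), and summed to 324 to 415 CPM at day 1 and 256 to 290 CPM at day 2. Apoe, the lipid carrier of macrophages and other cells, had 4.29, 2.32 and 3.24 CPM and then 18.8, 42.6 and 7.38 CPM (2.79, edgeR adjusted p = 0.066), without overlap. DESeq2 called Apoe higher with and without replicate 2. Adgre1 and Mrc1, which mark resident and alternatively activated macrophages, were under 2 CPM in every library of both days. Lymphocyte genes had a median of -1.41 over 15 tested (-1.36 without replicate 2), from sums of only 5.3 to 12.3 CPM. Neutrophil genes had 5 of 8 above 0 with a median of 0.53, and -0.09 without replicate 2.

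Genes of matrix and myofibroblasts, the cells that lay down scar, had 32 of 53 below 0 and a median of -0.27 (-0.18 without replicate 2), and DESeq2 called 1 higher and 2 lower. Without replicate 2 DESeq2 called 1 other gene higher, Fbln2, and none lower. Fn1, fibronectin, had 22.5, 20.8 and 26.5 CPM at day 1 and 35.0, 96.5 and 69.9 CPM at day 2, with no overlap (1.52 ± 0.35 SE, edgeR adjusted p = 0.094, DESeq2 adjusted p = 0.00484, n = 3 and 3). Without replicate 2 Fn1 passed with neither tool, at 1.17 with edgeR (adjusted p = 0.24) and 1.20 with DESeq2 (adjusted p = 0.0674). Col1a1, the main collagen of scar, had 25.5, 20.2 and 27.3 CPM and then 19.97, 30.9 and 36.9 CPM, and Acta2, the actin of myofibroblasts, had 4.99, 3.28 and 21.0 CPM and then 4.97, 55.3 and 13.9 CPM. Both overlapped, and the Acta2 value of 1.32 became -0.06 without replicate 2. Cdh11, an adhesion molecule named in the series title with Mrc1, had 2.19, 1.73 and 2.17 CPM and then 2.14, 0.507 and 6.15 CPM, with no call. Vim and Tgfb1 had values of 0.32 and -0.54.

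Complement and coagulation genes had 23 of 34 below 0 with a median of -0.43 with and without replicate 2, and 7 lower and 2 higher at an unadjusted p. DESeq2 called 2 lower in both cases, C8a and Procr. Procr, the endothelial protein C receptor, had 1.18, 3.35 and 0.676 CPM and then 0.0815, 0 and 0.0384 CPM (edgeR adjusted p = 0.075). C3, the central complement protein, had 377, 260 and 295 CPM and then 825, 855 and 353 CPM (1.12, adjusted p = 0.316), with replicate 3 inside the day 1 range. Ccl2, the chemokine that draws monocytes, had 1.27, 1.26 and 2.88 CPM and then 2.71, 2.20 and 6.84 CPM, which overlap. Cytokine genes had a median of -0.24 (-0.14 without replicate 2) and interferon genes 0.10 in both fits.

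Genes of fatty acid oxidation, the main fuel of the proximal tubule, had 24 of 39 above 0 and a median of 0.27 (0.21 without replicate 2). Ehhadh, an enzyme of peroxisomal oxidation, had 53.2, 47.2 and 62.8 CPM and then 113, 61.9 and 105 CPM, with an overlap by replicate 2. Nuclear genes of the respiratory chain had a median of -0.03, and genes of the mitochondrial genome -0.26, which became -0.61 without replicate 2 with 10 of 14 then lower at an unadjusted p. Glycolysis (-0.08), cholesterol (-0.12), folate (-0.15), ribosome biogenesis (-0.08) and cytoskeletal genes (0.07) were near the median of all genes, and without replicate 2 had -0.19, -0.09, 0.01, -0.14 and -0.18. Loop of Henle and distal tubule genes had 22 of 31 above 0 and a median of 0.45 (0.35 without replicate 2) and collecting duct genes 0.16 in both fits. DESeq2 called 4 of the first higher, and 1, Cldn10, without replicate 2. It called none of the second with all libraries or without replicate 2. Egf, the growth factor of the distal tubule, had 4.99, 2.50 and 3.5 CPM and then 2.08, 0.845 and 2.81 CPM, which overlap.

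Signs of other tissue did not track the days. Genes of adrenal, fat and liver, which would mark carry-over at dissection, summed to 9.7, 17.3 and 54.6 CPM at day 1 and 8.5, 56.1 and 50.7 CPM at day 2, and red cell genes to 6.2 to 7.3 and 5.4 to 10.5 CPM. The ranges overlap, and no member of either list was called by edgeR or DESeq2 among 11 and 7 tested. Their part in the results was not tested.

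**Figure D5:**
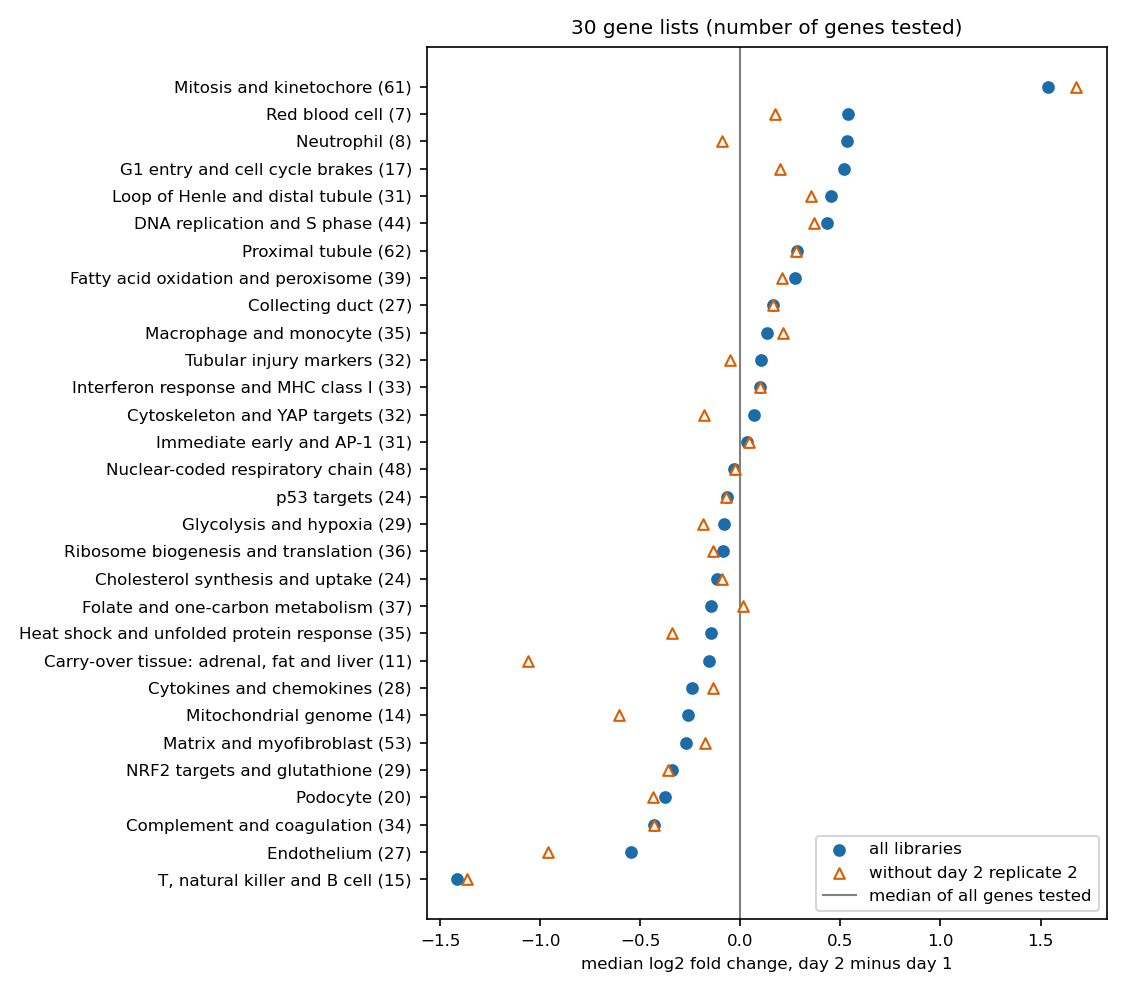
Median log2 fold change of day 2 against day 1 of each of 30 gene lists, with all libraries (filled point) and without day 2 replicate 2 (open triangle), with the number of genes tested in brackets and the median of all genes as a grey line. The mitosis list stands at 1.54 and 1.68, and the medians that move most without replicate 2 are those of adrenal, fat and liver, neutrophil, endothelial and red cell genes.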

How the data were processed

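Total RNA from frozen whole kidney was amplified from 10 ng per sample with SPIA reagents, per the labels' protocols. Per the submitters' processing notes, the tools were cutadapt, TopHat2 2.07, HTSeq and DESeq and the genome build was NCBIM37. The deposited files give, per library, the whole-number count of reads for each of 37991 gene identifiers, and 5 tally rows that were left out. The second, normalized set of 18 deposited files was not used. Symbols came from GENCODE M21 by identifier (32919 matched, 5072 did not).

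Counts of all 18 libraries were fitted with edgeR 4.0.16, after TMM scaling and filterByExpr over the 6 groups, in its quasi-likelihood pipeline, and the day 2 minus day 1 contrast was tested two-sided with Benjamini-Hochberg adjustment over 16824 genes. Levels are CPM with TMM scaling, which compare a gene between libraries and not genes with each other. SE belongs to the log2 fold change. Depth ran from 8.68 to 54.6 M (M, 1e6) gene reads, so values from few reads are imprecise. Alternatives changed the scaling, the filter, the tool (DESeq2 1.42.0, limma-voom 3.58.1), the libraries fitted or a replicate block. Members and the 30 lists (995 entries, 923 tested) were chosen with earlier results of these data known. Named by rule were called genes that also passed without day 2 replicate 2 (1, Ska3, of at most 12 in each direction), up to 4 called members of each list in each direction, and a panel of 32 genes. Other genes were named outside this rule, as called genes or as examples picked after their values were seen. The fit was tested on simulated counts. 1 gene is not reported here.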

Additional observations from a re-analysis of the deposited data

How the results depend on the processing

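The number of genes called depended strongly on the setting. Against 10 genes (7 higher, 3 lower, 4 of them mitosis genes), RLE scaling, library totals and leaving out mitochondrial genes gave 11, 12 and 11. With no low-count filter 248 were called (177 higher, 71 lower, 11 mitosis), with at least 1 CPM in 3 libraries 18 (12 higher, 6 lower), and with DESeq2 511 (356 higher, 155 lower, 22 mitosis); 73 of the 248 and 55 of the 511 were among the 169 genes far above in day 2 replicate 2. limma-voom and the robust spread gave 8 each, and the latter called 2 mitosis genes. Fitting only the day 1 and day 2 libraries with edgeR called 0, with 1422 genes at an unadjusted p under 0.05, and 0 again without day 2 replicate 2 (1480). Leaving out 1 library gave 1 to 158 called, 0 to 144 higher, 0 to 14 lower and 0 to 9 mitosis genes. The counts were 158 without day 2 replicate 1, 130 without day 2 replicate 3, 1 without day 2 replicate 2, and 1, 6 and 8 without day 1 replicates 1, 2 and 3. Without day 1 replicates 1, 2 and 3, in that order, 0, 0 and 1 of the called genes were higher. None of them was a mitosis gene or among the 7 that rose in the first fit. In an alternative chosen after seeing the data, DESeq2 without day 2 replicate 2 called 258 (188 higher, 70 lower, 20 mitosis), and edgeR without it and with no low-count filter 116 (90 higher, 26 lower, 12 mitosis). A block on replicate number called 2 genes, 0 higher, 2 lower and 0 mitosis genes. Correlations of same-numbered libraries, as deviations from the mean of their group, were 0.043, 0.00263 and 0.022. Not every library correlated best with its own number. These values show no clear pairing by number, but the day 2 mean includes replicate 2, so they cannot exclude a pairing.

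Each of the 10 called genes had the same sign in all 19 other fits, and each was called in 2 to 5 of the 6 fits that left out a library. The median of the 61 mitosis genes stayed between 1.43 and 1.87. The mitochondrial genome list has no value without mitochondrial genes. Panel genes not called in the first fit passed in some others: Havcr1 in 3, Clu in 2, Ccnb1 in 1, Slc34a1 in 3 and Fn1 in 3. Panel genes that reversed were never called. Leaving out 1 library put Ccne1 between -0.62 and 1.37, Cdkn1a between -0.48 and 1.39, Atf3 between -0.80 and 0.79, Acta2 between -0.0594 and 2.55, Cdh11 between -0.43 and 1.02, Mrc1 between -0.75 and 0.20, Adgre1 between -0.70 and 0.0648 and Vim between -0.12 and 0.59. Cdkn1a, Cdh11 and Vim reversed without day 2 replicate 3, Mrc1 without day 1 replicate 3, and Acta2 without day 2 replicate 2. Ccne1 gave 0.59 with limma-voom. Atf3 gave -0.0467 with library totals, -0.0268 with no filter, -0.41 with limma-voom and -0.025 with the replicate block. Without day 2 replicate 2, Atf3, Acta2 and Adgre1 gave -0.78, -0.0411 and 0.0785 with only day 1 and day 2 libraries, -0.78, -0.0239 and 0.0454 with DESeq2, and -0.80, -0.0724 and 0.0286 with no filter. The causes were not tested. Depth limits genes of few reads, above all in day 2 replicate 2.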
